A study of Homo sapiens with 24 samples.

Results

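SYNGR1, FLVCR1, FLJ23867, NID1 and TRADD are 5 of the 12547 endogenous genes measured in a human osteosarcoma line, U2OS. They were chosen by their signal at 0 h, before any drug, which differed strongly between cells with a QKI guide and control cells, each with an empty vector. They had been proposed as genes that QKI7 add-back leaves unchanged, and the data went against this for FLJ23867, which was lower with intact QKI7, and for NID1, which was lower with QKI7 labelled as lacking its KH domain. NID1 was also called lower with intact QKI7 under library totals and quantile normalisation, but not on the deposited scale. FLVCR1 passed once, with a call that was lost under other scalings and on leaving out most single libraries. In the main fit SYNGR1 and TRADD passed in neither add-back comparison, though SYNGR1 passed as higher with the KH-deleted form under some other settings. None of the 5 genes passed a main test of a different loss between 4 h and 8 h in any of 3 comparisons of genotypes. Under some other settings SYNGR1 and TRADD passed that test for guide cells against controls.

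The series asks how QKI affects mRNA stability. PolyA RNA came from 4 genotypes at 0, 4 and 8 h of combined exposure to 5 µg/mL actinomycin D, which blocks transcription, and 200 µM sodium arsenite, an oxidative stressor, with 2 libraries in each of 12 groups. Controls had the guide sgNS together with empty vector (sgNS+EV). The other genotypes carried a QKI guide with an empty vector (sgQKI+EV), with intact QKI7 (sgQKI+QKI7-WT) or with the KH-deleted form (written here sgQKI+QKI7-dKH). The 0 h libraries of all genotypes stand before the exposure, and the 4 h and 8 h libraries of all genotypes, controls included, received both agents. Every genotype with a QKI guide shares that guide, and whether a line was 1 clone or a pool was not given in the sources used here. A difference linked to the guide and a difference between cell lines cannot be told apart. How the add-back lines were derived was not given either. In every add-back comparison, a difference linked to the added QKI7 likewise cannot be told apart from one between lines. Nothing in the labels says that the 2 libraries of a group came from separate cultures, so the spread between them may be technical.

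QKI is a STAR-family protein that binds RNA through its KH domain and takes part in splicing, transport and stability of mRNAs. Its preferred site in RNA is a short bipartite element whose core is written ACUAAC or ACUAAU. When transcription is blocked, the fall of an mRNA with time reflects its loss, while its level before the block reflects both synthesis and loss. SYNGR1 encodes synaptogyrin 1, a membrane protein of synaptic vesicles and of the physin family. FLVCR1 encodes a plasma membrane transporter of heme and choline. NID1 encodes nidogen 1, which links laminin and type IV collagen networks in basement membranes. TRADD encodes the adaptor that joins the TNF receptor TNFR1 to downstream signalling. FLJ23867 is a symbol of an uncharacterised cDNA clone.

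All values are a spike-in-normalised signal as the authors deposited it, and read depth is unknown. The endogenous rows summed to between 690431 and 1367860 per library, and the 38 spike-in rows to between 11484.8 and 11939.9. Replicate libraries correlated with Pearson r between 0.9889 and 0.9982 over genes, lowest for the 4 h pair of sgQKI+QKI7-WT. QKI itself was 1.30 ± 0.10 (SE) lower on the log2 scale in sgQKI+EV than in sgNS+EV over 4 h and 8 h (limma, adjusted p = 2.11e-08). Its row was 0.97 higher with QKI7-WT and 0.60 higher with QKI7-dKH than with the empty vector (adjusted p = 5.47e-06 and 2.15e-04), and the row cannot tell native from added QKI. The QKI7-dKH call was lost when libraries were scaled to their totals (0.39, adjusted p = 0.0656) or quantile-normalised (0.39, adjusted p = 0.0560). At 0 h the QKI row was 0.63 lower in sgQKI+EV than in sgNS+EV, a value given without a test. Over the chase it was still below sgNS+EV, by 0.33 with QKI7-WT and 0.70 with QKI7-dKH (limma, adjusted p = 0.0400 and 6.31e-05). Between the 2 add-backs it was 0.38 higher with QKI7-WT (adjusted p = 0.0632). Of 8 mesenchymal and osteoblast markers, VIM, COL1A1, SPARC and RUNX2 were measured, and of 5 epithelial markers EPCAM, KRT8 and KRT18 were measured; their summed signals ran from 3191 to 5649 and from 711 to 1361. None of 4 blood and 3 endothelial markers was among the measured rows.

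At 0 h, the time that chose the members, the differences between sgQKI+EV and sgNS+EV are a description and were not tested. SYNGR1, FLVCR1, FLJ23867 and NID1 stood 1.06, 0.97, 0.94 and 0.63 higher in log2 of signal plus 1, and TRADD stood 1.10 lower. These were ranks 1, 2, 4 and 13 from the highest and 23 from the lowest of 12547 genes, whose median was -0.06. Rows below TRADD included RNA5S1 and further RNA5S rows with an identical value of -1.28, so the rank of TRADD counts repeated rows separately. The choice stated no threshold: LINC01060, which was not chosen, lay between FLVCR1 and FLJ23867 at 0.97. The stated choice used the 0 h libraries of sgQKI+EV and sgNS+EV, and the differences tested below are taken from other libraries. The estimate of spread in those tests came from all 24 libraries, the choosing ones included. The proposal that add-back leaves these genes unchanged was itself made with results of these data known, so the add-back libraries are not independent of how the genes were put forward. Groups with the same guide may differ in the same way at all times, so the 4 h and 8 h values are repeats of the measure in other libraries and not a separate kind of evidence.

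SYNGR1 lies on chromosome 22, 39349925 to 39385588 on the plus strand (GRCh38, GENCODE 29). In sgNS+EV its signal was 14.5 and 15.3 at 0 h, 9.08 and 9.88 at 4 h, and 8.57 and 8.09 at 8 h. In sgQKI+EV it was 33.5 and 30.8 at 0 h, 21.9 and 19.5 at 4 h, and 13.8 and 13.2 at 8 h. The groups did not overlap at any time, and the control libraries at 0 h were near the level that sgQKI+EV reached at 8 h. With QKI7-WT the signal was 29.2 and 33.5, then 18.4 and 22.7, then 14.99 and 14.7 at the same times. With QKI7-dKH it was 33.8 and 32.4, then 20.7 and 22.2, then 15.5 and 17.5. The add-back libraries lay above both control libraries at every time and overlapped sgQKI+EV at 0 h and 4 h, while at 8 h all 4 of them were above sgQKI+EV.

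FLVCR1 lies on chromosome 1, 212858255 to 212899363 on the plus strand. In sgNS+EV its signal was 5.66 and 5.43 at 0 h, 3.44 and 3.60 at 4 h, and 2.85 and 2.87 at 8 h. In sgQKI+EV it was 13.5 and 10.4, then 6.88 and 7.65, then 5.68 and 5.41. The 0 h replicates of sgQKI+EV were the least alike of this gene, yet both were above either control library. With QKI7-WT it was 13.2 and 11.6, then 9.09 and 7.66, then 6.11 and 5.99. With QKI7-dKH it was 14.9 and 13.1, then 8.01 and 7.71, then 6.69 and 7.66. No library with the QKI guide fell to the level of a control library of the same time.

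FLJ23867 had no entry in the gene tables used here, so no position is given. In sgNS+EV its signal was 8.08 and 7.89 at 0 h, 3.84 and 4.03 at 4 h, and 3.29 and 3.79 at 8 h. In sgQKI+EV it was 17.0 and 15.5, then 9.71 and 9.06, then 9.67 and 8.15. All the guide libraries were above the controls, and the order of the add-back groups differed from that of SYNGR1 and FLVCR1. With QKI7-WT it was 11.5 and 13.3, then 7.58 and 7.37, then 6.33 and 5.53. With QKI7-dKH it was 17.7 and 16.2, then 9.98 and 10.4, then 9.36 and 9.41. Both QKI7-WT libraries lay between the control pair and the sgQKI+EV pair at every time, without touching either, while QKI7-dKH overlapped sgQKI+EV at 0 h and 8 h and lay just above it at 4 h.

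NID1 lies on chromosome 1, 235975830 to 236065162 on the minus strand. In sgNS+EV its signal was 88.4 and 94.3 at 0 h, 72.7 and 71.0 at 4 h, and 56.8 and 59.7 at 8 h. In sgQKI+EV it was 142 and 142, then 127 and 106, then 80.4 and 77.5. The 4 h replicates of sgQKI+EV differed more than those of any other NID1 group, and both were above the controls. With QKI7-WT it was 117 and 127, then 125 and 125, then 81.9 and 76.5. With QKI7-dKH it was 114 and 103, then 87.5 and 87.9, then 67.4 and 70.6. Here QKI7-dKH was the add-back that stood between control and sgQKI+EV at every time, and QKI7-WT did so at 0 h only, overlapping sgQKI+EV at 4 h and 8 h.

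TRADD lies on chromosome 16, 67154180 to 67160298 on the minus strand, and was the only member that was lower with the guide. In sgNS+EV its signal was 12.1 and 10.8 at 0 h, 6.72 and 7.88 at 4 h, and 9.61 and 10.1 at 8 h. In sgQKI+EV it was 5.51 and 4.16, then 5.59 and 4.81, then 4.73 and 4.61. All 3 guide genotypes were below the controls at every time, by the smallest margin at 4 h. With QKI7-WT it was 3.87 and 5.41, then 3.42 and 4.90, then 6.34 and 4.18. With QKI7-dKH it was 6.26 and 4.28, then 4.25 and 4.42, then 5.08 and 5.62. At each time the QKI7-WT libraries overlapped those of both other guide genotypes.

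**Figure D1:**
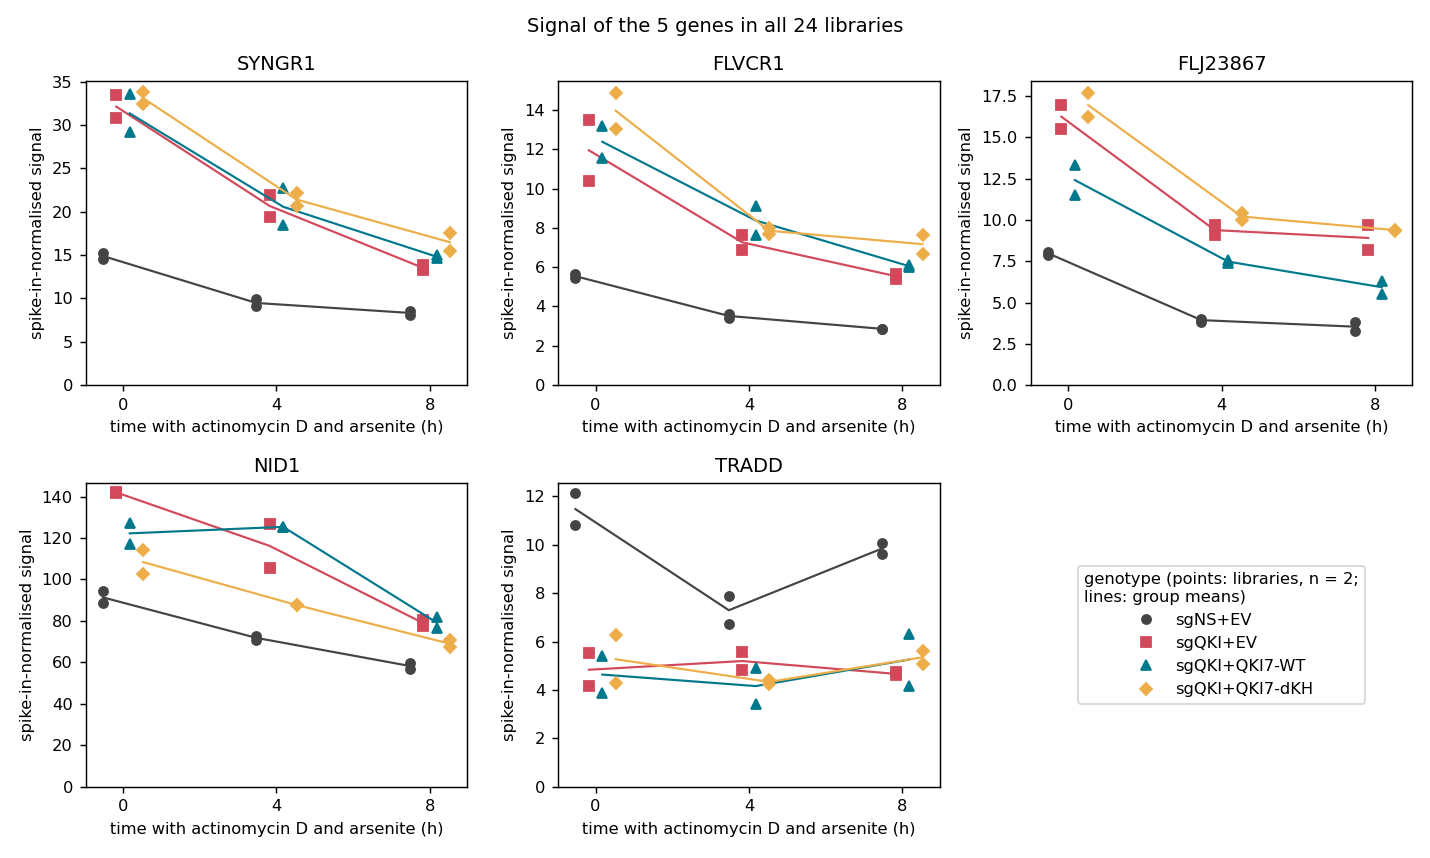
Spike-in-normalised signal (vertical axis, linear from 0) of each gene against time with actinomycin D and arsenite (horizontal axis, h); points are single libraries, 2 per group, lines join group means, and genotypes are offset sideways so that they can be told apart. Every guide library lies above the controls of its time for SYNGR1, FLVCR1, FLJ23867 and NID1 and below them for TRADD, the QKI7-WT triangles lie between the other groups for FLJ23867 and the QKI7-dKH diamonds do so for NID1.

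All 5 genes differed between sgQKI+EV and sgNS+EV over the chase, taken as the mean of 4 h and 8 h. FLJ23867 was 1.10 ± 0.07 (SE) higher in log2 of signal plus 1, a 2.14-fold difference (limma, adjusted p = 3.49e-09). SYNGR1 was 0.84 ± 0.07 higher (adjusted p = 4.24e-08), FLVCR1 0.82 ± 0.08 (6.82e-07) and NID1 0.56 ± 0.05 (4.19e-07). TRADD was 0.68 ± 0.13 lower on this scale (adjusted p = 2.41e-04), with all 4 guide libraries below all 4 controls. At 4 h alone, TRADD did not pass (-0.42, adjusted p = 0.0679), while at 8 h alone its difference was -0.94 (adjusted p = 7.41e-04).

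Most called genes differed in the other direction from the 4 higher members. The median of all genes was -0.17, with 228 higher and 5788 lower genes, or 1.82% and 46.1% of those tested. The 4 higher calls among the members therefore stand against a 1.82% background, and the lower call of TRADD against one of 46.1%. The members were chosen as far out in the same genotypes at 0 h, so calls above the background are largely set by that choice. The split of all genes turned on scaling: library totals gave 1325 up and 2610 down, quantile normalisation 2113 up and 2274 down. The 5 members kept their calls and directions under both scalings, with differences of 1.25 and 1.31 for FLJ23867 and of -0.56 and -0.49 for TRADD.

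FLJ23867 was the only member that passed the test of QKI7-WT against the empty vector. FLJ23867 was 0.40 ± 0.07 lower than with the empty vector over the chase (limma, adjusted p = 4.76e-04), with all 4 QKI7-WT libraries below all 4 sgQKI+EV libraries. On the log2 scale this placed it 36.7% of the way from sgQKI+EV to sgNS+EV over the chase. It was 1 of 68 lower genes, 0.542% of those tested, while 4790 genes or 38.2% were higher and the median was 0.15. Scaling turned the split of all genes, to 108 up and 759 down with library totals and to 448 up and 391 down with quantile normalisation. The FLJ23867 call held under both scalings (-0.61 and -0.53), at 4 h alone (-0.29, adjusted p = 0.0313) and at 8 h alone (-0.51, adjusted p = 0.0288). Its guide difference was 1.25 and 1.31 with these scalings. The 36.7% is thus a ratio of estimates that depends on scaling, and it is given without an interval.

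For the other members the intervals of the QKI7-WT difference bound what could have gone undetected. SYNGR1 differed by 0.06 (95% interval -0.09 to 0.20, adjusted p = 0.553) and FLVCR1 by 0.14 (-0.03 to 0.32, adjusted p = 0.181). Each interval excludes a full return to the control level, which would need a value of -0.84 or -0.82. TRADD differed by -0.08 (-0.34 to 0.19, adjusted p = 0.665), where a full return would need 0.68. NID1 differed by 0.06 (-0.05 to 0.17, adjusted p = 0.412). Its sign depended on scaling: it was -0.16 with library totals (adjusted p = 0.0202) and -0.14 with quantile normalisation (adjusted p = 0.0054). SYNGR1 also turned to -0.15 and -0.12 under these scalings, and FLVCR1 to -0.05 with library totals, all without passing.

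NID1 was lower with QKI7-dKH than with the empty vector. It was 0.29 ± 0.05 lower over the chase (limma, adjusted p = 3.98e-04), with all 4 QKI7-dKH libraries below the sgQKI+EV libraries of their time. This was 52.9% of the way to sgNS+EV over the chase. It was 1 of 31 lower genes, 0.247% of those tested, against 5616 higher genes, 44.8%, and a median of 0.17. Library totals gave 129 and 279 such genes, and quantile normalisation 411 and 251. NID1 stayed lower under both, by -0.52 and -0.50. Its guide difference was 0.70 and 0.69 with these scalings. The 52.9% is thus a ratio of estimates that depends on scaling, and it is given without an interval.

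FLVCR1 was 0.21 ± 0.08 higher with QKI7-dKH than with the empty vector (limma, adjusted p = 0.0472), a change away from the control level and close to the median of all genes. That call was lost with library totals (0.02, adjusted p = 0.957), with quantile normalisation (0.08, adjusted p = 0.530), at 4 h alone (0.10, adjusted p = 0.686) and in 7 of 8 fits that left out 1 library (0.17 to 0.25 over all 8). It held at 8 h alone (0.32, adjusted p = 0.0359) and with the compared groups fitted alone (adjusted p = 0.0122). SYNGR1 differed by 0.16 (95% interval 0.01 to 0.30, adjusted p = 0.0694) and FLJ23867 by 0.09 (-0.06 to 0.24, adjusted p = 0.313). SYNGR1 passed at 8 h alone (0.27, adjusted p = 0.0352), when the compared groups were fitted alone (0.16, adjusted p = 0.0256), and without replicate 1 of either the 4 h sgQKI+EV pair (0.20, adjusted p = 0.0395) or the 8 h QKI7-dKH pair (0.20, adjusted p = 0.0408). TRADD differed by -0.02 (-0.29 to 0.24, adjusted p = 0.882). Library totals turned SYNGR1 to -0.05 and FLJ23867 to -0.11, and quantile normalisation turned them to -0.03 and -0.06, without a call.

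The 2 forms of QKI7 differed from each other on FLJ23867 and NID1, in opposite directions. With QKI7-WT, FLJ23867 was 0.49 ± 0.07 lower than with QKI7-dKH over the chase (limma, adjusted p = 4.50e-04) and NID1 was 0.35 ± 0.05 higher (adjusted p = 6.18e-04). In this comparison 228 genes, 1.82%, were called, 48 higher and 180 lower, against 123 and 368 with library totals and 303 and 376 with quantile normalisation. Both members stayed called under those scalings and in all 8 fits that left out 1 library. FLJ23867 did not pass at 4 h alone (-0.40, adjusted p = 0.0585) and NID1 did not at 8 h alone (0.20, adjusted p = 0.124). SYNGR1, FLVCR1 and TRADD differed by -0.10 (-0.25 to 0.04), -0.07 (-0.24 to 0.11) and -0.05 (-0.32 to 0.21), with adjusted p of 0.595, 0.815 and 0.918.

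Before the chase, FLJ23867 was again lower with QKI7-WT than with QKI7-dKH, by -0.42 ± 0.10 (limma, adjusted p = 0.0318). NID1 was 0.17 ± 0.08 higher and did not pass (adjusted p = 0.169). At 0 h 471 genes, 3.75%, were called, 6 higher and 465 lower, with 17 and 38 for library totals and 49 and 94 for quantile normalisation. Over all genes the median was -0.15 as deposited and -0.01 with library totals. FLJ23867 then missed the threshold (-0.28, adjusted p = 0.201, and -0.29, adjusted p = 0.113, with quantile normalisation), and NID1 passed (0.32, adjusted p = 0.0077, and 0.38, adjusted p = 3.5e-05). FLJ23867 also missed it in 3 of 4 fits that left out 1 library, without QKI7-WT replicate 1 (adjusted p = 0.199) and without QKI7-dKH replicate 1 (0.362) or replicate 2 (0.0670).

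No member had returned to the control level over the chase with either form of QKI7. With QKI7-WT, SYNGR1, FLVCR1, FLJ23867 and NID1 were 0.90, 0.96, 0.70 and 0.62 above sgNS+EV and TRADD was -0.76 from it, with limma adjusted p from 6.33e-08 to 6.37e-04. With QKI7-dKH the differences were 1.00, 1.02, 1.19, 0.26 and -0.70, with adjusted p from 9.91e-10 to 0.00184. The background of higher and lower genes was 5.08% and 7.23% for QKI7-WT (638 and 907 genes), and 13.3% and 10.7% for QKI7-dKH (1664 and 1347 genes). With library totals the splits were 502 and 3315 for QKI7-WT and 1112 and 3345 for QKI7-dKH. The smallest difference, that of NID1 with QKI7-dKH, did not pass at 8 h alone (0.24, adjusted p = 0.0797). These comparisons share their control libraries with the guide comparison.

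**Figure D2:**
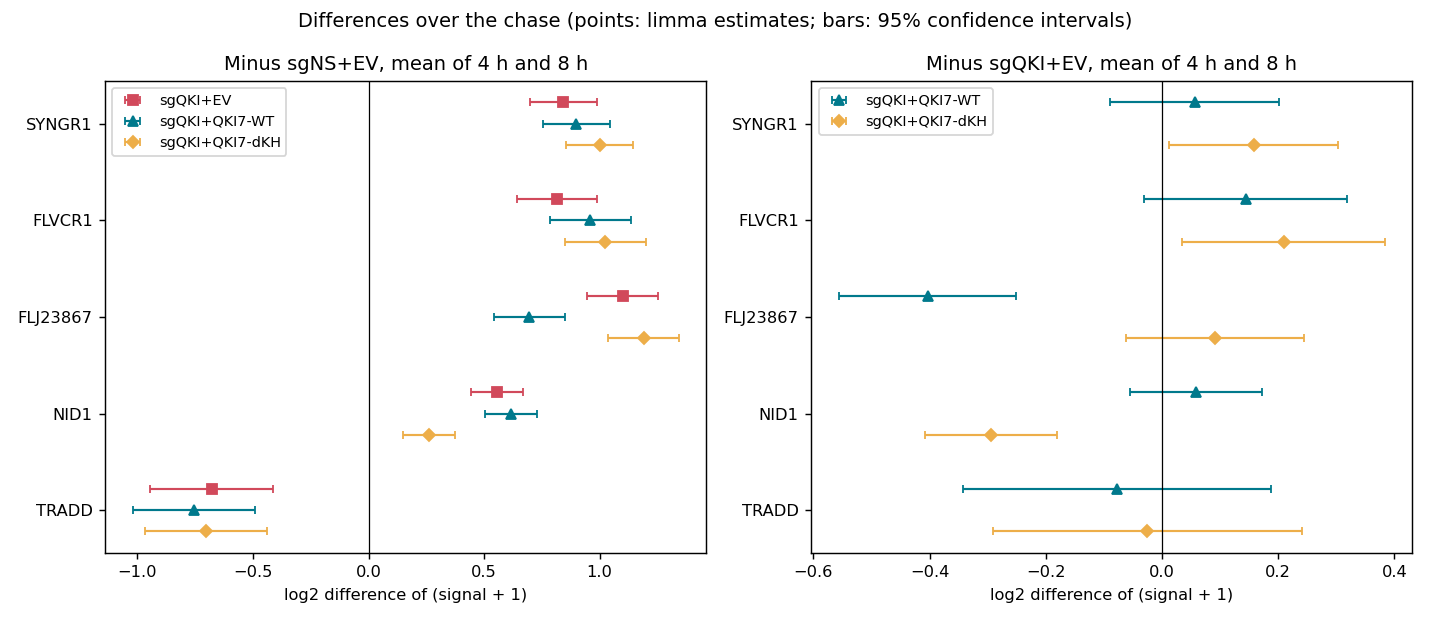
Log2 differences of signal plus 1 (horizontal axes) for the 5 genes, as means of 4 h and 8 h; points are limma estimates and bars 95% confidence intervals, against sgNS+EV on the left and against sgQKI+EV on the right, with different axis ranges. On the left every interval excludes 0, and on the right the intervals lie wholly below 0 for FLJ23867 with QKI7-WT at -0.40 and for NID1 with QKI7-dKH at -0.29. Also on the right, the QKI7-dKH intervals of SYNGR1 (0.01 to 0.30) and FLVCR1 (0.04 to 0.38) lie wholly above 0.

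Loss during the chase was described per genotype and tested between genotypes from 4 h to 8 h, since the stated choice used 0 h values. At 8 h the group mean of SYNGR1 was 55.9% of its 0 h mean in sgNS+EV and 42.1% in sgQKI+EV. FLVCR1 kept 51.6% and 46.4%, NID1 63.8% and 55.6%, and FLJ23867 44.3% and 54.8%. These shares divide by the 0 h values that chose the genes, which favours a smaller share in sgQKI+EV for genes chosen as high there, so nothing is read from them. The change from 0 h to 8 h in sgQKI+EV minus that in sgNS+EV was -0.42 for SYNGR1, -0.21 for FLVCR1, 0.18 for FLJ23867 and -0.20 for NID1 in log2, beside a median of -0.14 for all genes. With QKI7-WT and QKI7-dKH the shares were 47.3% and 49.8% for SYNGR1, 48.9% and 51.4% for FLVCR1, 47.7% and 55.4% for FLJ23867, and 64.8% and 63.6% for NID1.

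TRADD showed little net change of signal between 0 h and 8 h, but fell by 4 h in sgNS+EV. Its 8 h mean was 85.8% of the 0 h mean in sgNS+EV, 96.5% in sgQKI+EV, 113% with QKI7-WT and 102% with QKI7-dKH. In sgNS+EV it was lower at 4 h than at 8 h, 7.30 ± 0.82 against 9.85 ± 0.34 (SD, n = 2). The 4 h mean in sgNS+EV was 63.6% of the 0 h mean. On the log2 scale that change was -0.59, beside a median of -0.31 for all genes. The TRADD shares also divide by the 0 h values that chose the genes. These shares are of a spike-in scale on which the median gene fell by 0.70 on the log2 scale over 8 h in sgNS+EV.

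The change from 4 h to 8 h did not differ between sgQKI+EV and sgNS+EV for any member at the threshold. SYNGR1 changed by -0.17 in sgNS+EV and -0.58 in sgQKI+EV, a difference of -0.41 ± 0.14 (SE; limma, adjusted p = 0.0573). NID1 differed by -0.25 ± 0.11 (adjusted p = 0.126), TRADD by -0.52 ± 0.26 (0.172), FLVCR1 by -0.11 ± 0.17 (0.695) and FLJ23867 by 0.05 ± 0.15 (0.847). A negative value means that the signal at 8 h, relative to 4 h, was lower in sgQKI+EV than in the control. In this comparison 1628 genes, 13%, were called, 174 higher and 1454 lower, which became 3325 and 142 with library totals and 9 and 25 with quantile normalisation. The count ran from 0 to 2400 when 1 library was left out, and was 0 without replicate 1 of the 4 h or replicate 2 of the 8 h sgNS+EV pair, replicate 1 of the 4 h sgQKI+EV pair, or either 8 h sgQKI+EV library. SYNGR1 passed among genes with a mean signal of at least 5 (adjusted p = 0.0461) and when the compared groups were fitted alone (0.0173), where TRADD also passed (0.0114). Without replicate 2 of the 4 h sgQKI+EV pair, SYNGR1 (-0.49, adjusted p = 0.0316) and NID1 (-0.38, adjusted p = 0.0166) passed.

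No member and no other gene passed the test of either add-back against sgQKI+EV in the change from 4 h to 8 h. A missed threshold does not show that the changes were equal. With QKI7-WT 0% of genes were called by limma, 1533 of 12547 had an unadjusted p under 0.05, and fitting the compared groups alone called 18. Without replicate 2 of the 4 h QKI7-WT pair, 3224 genes were called but no member. With QKI7-dKH 0% were called, 635 had an unadjusted p under 0.05 and 44 were called with the compared groups alone. FLJ23867, which was lower with QKI7-WT, differed in its change by -0.22 (95% interval -0.53 to 0.08), and NID1, which was lower with QKI7-dKH, by 0.20 (-0.02 to 0.43). The median SE of such a difference was 0.15, against 0.08 for a difference over the chase, so that differences in loss were measured less precisely than differences in level.

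**Figure D3:**
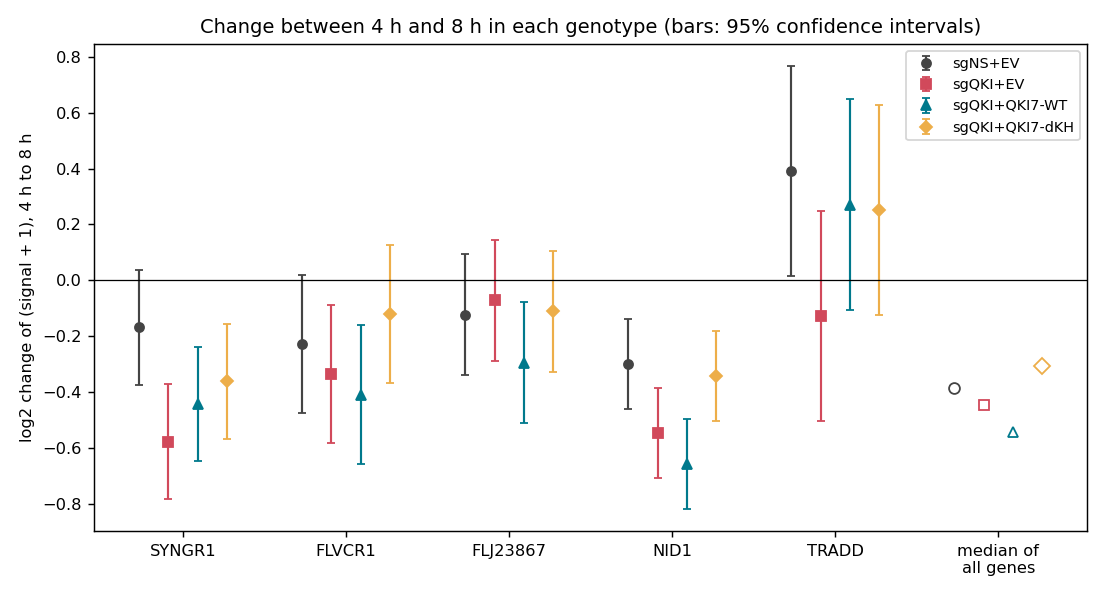
Change in log2 of signal plus 1 from 4 h to 8 h (vertical axis) in each genotype for the 5 genes, with limma estimates as filled points and 95% confidence intervals as bars; open points give the median of all genes. SYNGR1 fell by 0.17 in sgNS+EV and 0.58 in sgQKI+EV with intervals that overlap slightly, and the TRADD estimates are above 0 in all genotypes but sgQKI+EV.

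The QKI core element was searched in 1 GENCODE 29 transcript per gene, as ACTAAC or ACTAAT on the sense strand of the spliced transcript, because the protein binds RNA. NID1, the member that was lower with the form labelled as KH-deleted, held 2 matches, both in the 3' UTR (exon 20 of 20, minus strand). They are shown in the transcript's sense, with the element in capitals and 12 bases on each side, first at chr1:235977030-235977059 and then at chr1:235976723-235976752 (GRCh38).
NID1 site 1: ataccaaagattACTAATtattcctctttg
NID1 site 2: ttgaatatttatACTAATggttcatatcct
The NID1 transcript is 5864 bases long and held 0.341 matches per kb, where 11337 transcripts of measured genes together held 0.244. At least 1 match was present in 46.9% of all these transcripts and in 70.8% of those within 10% of its length. Of the 933 transcripts within 10% of its length, 41.3% held at least as many matches as NID1, so its count was ordinary for its length. SYNGR1 (4391 bases), FLVCR1 (5939 bases) and TRADD (1877 bases) held 0 matches, where 58.5%, 71.8% and 24.7% of transcripts of like length held any. A match is a run of letters and not a measured binding site, and its absence says only that these letters are not in that transcript.

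The other measured genes of each member's pathway were counted in the same comparisons, with members left out, and are read against the 46.1% of all genes that were lower in sgQKI+EV. Of 35 genes of synaptic vesicles and the physin family, 0 were higher and 17, or 48.6%, lower in sgQKI+EV over the chase, with a median of -0.22 against -0.17 for all genes. SNAP23, VAMP3 and SNAP29, SNARE proteins of membrane fusion outside as well as inside neurons, differed by -0.70, -0.45 and -0.34 (limma, adjusted p = 6.55e-07, 1.08e-05 and 2.00e-05). The share of lower genes in this list was near that of all genes, and SYNGR1 itself was at 0.84.

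Of 46 genes of heme and choline metabolism and transport, 0 were higher and 19, or 41.3%, lower, with a median of -0.14. TFRC, the transferrin receptor, and BACH1, a heme-sensing repressor, differed by -0.27 and -0.36 (limma, adjusted p = 4.23e-05 and 8.04e-05). FLVCR1 was at 0.82. Of 34 basement membrane genes, 1 was higher and 13, or 38.2%, lower, with a median of -0.13. Both shares were below that of all genes. The laminin chains LAMA1 and LAMC1 and the laminin receptor subunit ITGA6 differed by -0.45, -0.29 and -0.35 (adjusted p = 2.44e-06, 8.06e-05 and 5.04e-05), beside 0.56 for NID1.

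Of 45 genes of TNF receptor signalling, 0 were higher and 21, or 46.7%, lower, with a median of -0.16, both near the values of all genes. The initiator caspase CASP8 and the adaptors TAB2 and TAX1BP1 differed by -0.39, -0.40 and -0.32 (limma, adjusted p = 3.21e-05, 3.85e-05 and 5.21e-05), and TRADD by -0.68. The list genes named for this comparison kept direction and call under both other scalings, but the list counts did not. With quantile normalisation, higher and lower genes numbered 5 and 5 for synaptic vesicles, 11 and 8 for heme and choline, 9 and 9 for basement membrane, and 9 and 6 for TNF receptor signalling. With library totals they numbered 4 and 6, 7 and 8, 9 and 7, and 4 and 7.

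**Figure D4:**
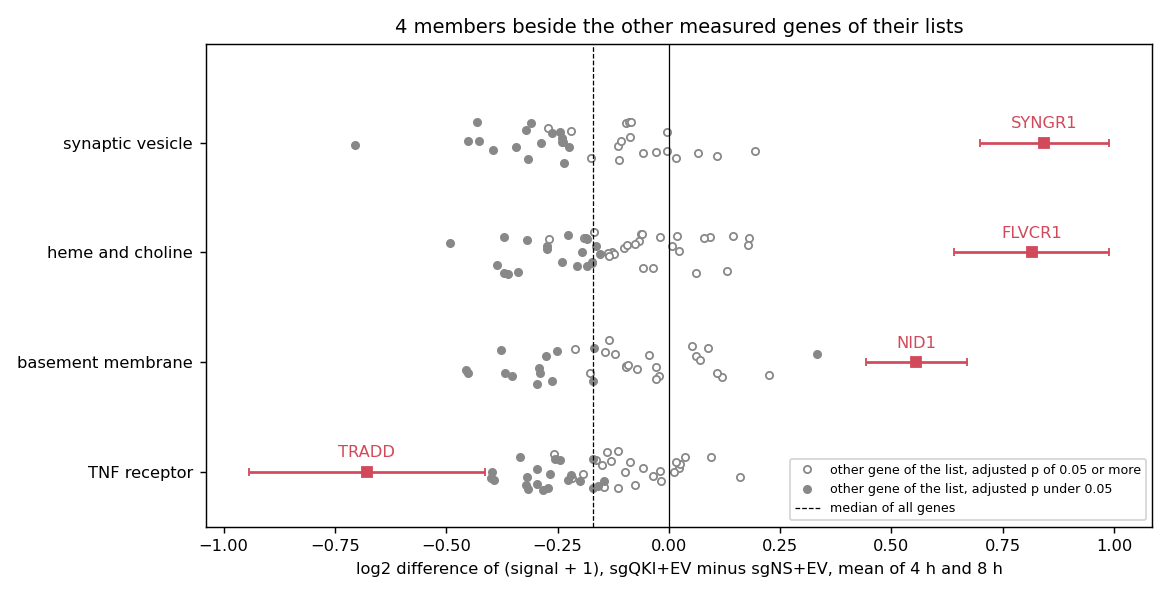
Log2 difference of signal plus 1 between sgQKI+EV and sgNS+EV, as the mean of 4 h and 8 h (horizontal axis), for 4 members (squares, with 95% confidence intervals) and the other measured genes of their lists (circles, filled where the adjusted p is under 0.05; vertical scatter within a list only separates points). SYNGR1, FLVCR1 and NID1 lie to the right of every other gene of their lists, TRADD lies to the left of its list, and the dashed line is the median of all genes at -0.17. The members were chosen as far out in the same genotypes at 0 h, so their place beside unchosen genes is largely set by that choice.

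With QKI7-WT against the empty vector, most called genes of these lists were higher, as were most called genes overall. For synaptic vesicles, 13 of 35 were higher (37.1%) and 1 lower, for heme and choline 13 of 46 (28.3%) and 0, for basement membrane 7 of 34 (20.6%) and 1, and for TNF receptor signalling 15 of 45 (33.3%) and 0, against 38.2% higher over all genes. VAMP3 (0.37), TFRC (0.27), TAB2 (0.34) and SPARC (0.30), a secreted matrix glycoprotein, were among those with the smallest adjusted p (2.53e-04, 2.26e-04, 4.34e-04 and 3.35e-04 by limma). None of these 4 genes passed with library totals or quantile normalisation. The counts with library totals were 0 and 2, 0 and 3, 0 and 7, and 0 and 2 in the same order of lists, so that their upward direction rests on the spike-in scale. With QKI7-dKH, 16 of 35, 21 of 46, 18 of 34 and 28 of 45 genes were higher (45.7%, 45.7%, 52.9% and 62.2%) and 0 lower as deposited, against 44.8% higher over all genes. The counts fell to 0, 1, 3 and 2 higher with library totals, where 0, 1, 3 and 0 were lower.

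Genes next to the 4 placed members did not share their difference. Around SYNGR1, RPL3 and TAB1 differed by -0.22 (limma, adjusted p = 0.00597) and -0.11 (0.212) over the chase, where SYNGR1 was at 0.84. RPL3 did not pass with library totals (-0.07, adjusted p = 0.181). Around FLVCR1, TATDN3 and VASH2 differed by -0.33 (0.00461) and -0.13 (0.462), and TATDN3 passed with neither library totals (-0.20, 0.0562) nor quantile normalisation (-0.13, 0.0959). Around NID1, LYST and GPR137B differed by -0.20 (0.169) and -0.08 (0.473), the latter turning to 0.06 and 0.13 under the other scalings without passing. FBXL8 overlaps TRADD on the opposite strand and differed by 0.09 (0.590). The library kit keeps strand, but whether the counting used it was not given in the sources used here, so reads of the overlap may be shared. C16orf70 and NOL3, on either side of TRADD, differed by -0.14 (0.0861) and -0.08 (0.469).

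Likeness of pattern was measured as Pearson r over 24 libraries, on log2 values with the mean of each time removed, among 10558 genes with a mean signal of at least 5. These values describe libraries that share 4 genotypes, and no test was made. They include the 0 h libraries that chose the members, so likeness among members is in part fixed by the choice. FLVCR1 was the gene most like SYNGR1, and the reverse held too (r = 0.955). OSGIN1, an oxidative-stress-induced gene, and TRIM16, a ubiquitin ligase, came next for SYNGR1 (0.945 and 0.932). SH3RF3 and SRD5A1 came next for FLVCR1 (0.912 and 0.890). RTN1, a reticulon of the endoplasmic reticulum, led for FLJ23867 (0.916), before SYNGR1 (0.896) and OSGIN1 (0.892). NID1 had lower values throughout, with RARRES2 at 0.793, HSD17B3 at 0.760 and SYNGR1 at 0.754. TRADD went with STRA6, a retinol transporter (0.949), MXD4 (0.940) and MARCH2 (0.924), and against the other members, with r from -0.653 with NID1 to -0.850 with FLVCR1.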

How the data were processed

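The deposited table gives 1 signal value per gene and library, normalised by the authors to ERCC spike-in RNAs. That scale was read from the values, since the spike-in rows sum to nearly the same amount in every library, and the unit before that step was not given in the sources used here. STAR, RSEM and GRCh38 are named, without versions, per the submitters' processing notes. Values were analysed as log2 of the signal plus 1 with limma 3.58.1 in R 4.3.3, fitting 12 group means to 24 libraries with a mean-variance trend (12 residual and 9.0 prior degrees of freedom). Requiring a signal of 1 or more in 2 or more libraries excluded no gene. P-values were two-sided, with Benjamini-Hochberg adjustment across 12547 genes, and a gene is called, or said to be higher or lower by a test, under 0.05. Folds are of signal plus 1. The script was tested on simulated data. Groups came from sample titles. The members and lists were chosen with earlier results of these data known. Named genes are the members, QKI, the measured neighbours, up to 3 genes per list with the smallest adjusted p, and the 3 genes most like each member; 1 gene under this rule is not reported here. Depth is unknown, so precision comes from replicates alone. Alternatives were library totals, quantile normalisation, a pseudocount of 0.1, other filters, a replicate block, the compared groups alone, single times and leaving out each library.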

Additional observations from a re-analysis of the deposited data

How the results depend on the processing

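All 5 members were called against control with QKI7-WT under every alternative, in the guide comparison under all but 4 h alone (4), and with QKI7-dKH against control under all but 8 h alone (4). In the QKI7-WT against empty vector comparison, 2 members were called with library totals and with quantile normalisation, as NID1 reversed to -0.157 and -0.138. For QKI7-dKH against empty vector, 1 member was called with library totals, quantile normalisation and 4 h alone, and 1 to 3 when a library was left out. For QKI7-WT against QKI7-dKH over the chase, 1 was called at 4 h alone and 1 at 8 h alone. At 0 h, leaving out a library gave 0 to 1. For the loss difference between sgQKI+EV and sgNS+EV, 1 was called with a mean signal of at least 5, 2 with the compared groups alone, and 0 to 2 when a library was left out.

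Counts over all genes depended far more on the processing, and the cause was not tested. For the guide difference, 6016 genes became 3935 with library totals. For QKI7-WT against empty vector, 4858 became 867 with library totals, 839 with quantile normalisation, 66 at 8 h alone, 2427 with the compared groups alone, and 2977 to 6270 when a library was left out. For QKI7-dKH against empty vector, 5647 became 408 with library totals, 662 with quantile normalisation, 278 at 4 h alone, and 3503 to 6105 when a library was left out. For QKI7-WT against QKI7-dKH, 228 became 491 with library totals, 679 with quantile normalisation, 123 at 4 h alone, 613 at 8 h alone, 53 for a fit of the compared groups alone, and 87 (when the 8 h QKI7-dKH replicate 2 was left out) to 1426 (when the 4 h QKI7-WT replicate 2 was). For QKI7-WT against control, 1545 became 3817 with library totals, 2558 with quantile normalisation, 2342 at 4 h alone, 825 at 8 h alone, 322 with the compared groups alone, and 697 to 4129 on leaving out a library (697 without the 8 h sgNS+EV replicate 1, 4129 without the 4 h QKI7-WT replicate 1). For QKI7-dKH against control, 3011 became 4519 at 4 h alone, 583 at 8 h alone, 4906 with the compared groups alone, and 1676 to 2397 on leaving out a library. At 0 h, 471 became 55 with library totals, 143 with quantile normalisation, 265 with the compared groups alone, and 16 to 175 on leaving out a library. For the loss difference between sgQKI+EV and sgNS+EV, 1628 became 3467 with library totals, 34 with quantile normalisation, 3139 with the compared groups alone, and 0 to 2400 on leaving out a library. For QKI7-WT against sgQKI+EV, 0 became 18 with the compared groups alone and 0 to 3224 on leaving out a library, and for QKI7-dKH, 0 became 44 with the compared groups alone.

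Same-numbered libraries did not deviate together in a uniform way: over 66 pairs of groups the correlation of their deviations ran from -0.424 to 0.483, and 21 exceeded 0.1. These values show no common pairing over all groups. Whether the numbers pair libraries within some of the groups was not tested. With a replicate block the guide difference called 6163 genes and 5 members, and it changed no member's call in any comparison. Each group had 2 libraries, so leaving one out assumes that the lone library varies like the rest.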
